A study of Mus musculus with 12 samples.

Results

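Adipoq, Lep, Retn, Cfd, Lpl, Fabp4, Plin1, Cidec, Cidea and Pparg, 10 genes of the fat cell, were followed in RNA from 12 SVR tumors. They were chosen by name among the 54232 genes of the count table, and all 10 were found. SVR is a mouse endothelial line that forms angiosarcomas, and the tumors grew under the skin of the flank of athymic nude mice, whose strain the labels give as C57BL/6. All mice were treated by daily gavage. They received vehicle (control), trametinib, an inhibitor of the kinase MEK, at 1 mg/kg, cediranib, an inhibitor of VEGF receptors, at 3 mg/kg, or both drugs at these doses (combination). Each group held 3 tumors, numbered as replicates 1 to 3. All tumors came from 1 cell line, and the length of treatment of each tumor is not known here. The RNA was from the whole piece, in which tumor cells and the host's fat, skin and muscle were all of mouse origin and their reads cannot be told apart. The question put to these genes was how much adipocyte RNA each tumor piece held and whether the level differed between treatments.

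Adipocytes store triglyceride in a large lipid droplet coated by perilipin and CIDE proteins, and they take up the fatty acids that lipoprotein lipase releases from blood lipoproteins. The nuclear receptor PPAR gamma and the C/EBP factors switch on this program. Adipocytes also secrete hormones, the adipokines, and a fat layer lies under the skin, where these tumors were grown.

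The libraries held 9478865 to 11666094 counts, and levels are given as CPM, the count of a gene scaled to a common library size. In a library with 0 counts of a gene, up to 3 counts remain possible, which is 0.251 to 0.348 CPM here. That bound and the Poisson intervals below describe counting alone, because reads were not tagged by molecule and some may be copies of another. A filter on low counts kept 12897 genes for testing. Lpl, Pparg, Plin1 and Fabp4, 4 of the 10 members, passed it, while Cfd, Cidec, Lep, Adipoq, Retn and Cidea, the other 6, did not. Libraries were made by exome capture with the TruSeq RNA Exome kit, in which the yield of a gene also depends on its probes. The yield was not measured for any member, and how well the probes match the mouse genes was not given. Few counts of a member therefore need not mean little of its RNA.

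The promoters of the members are shown because the program is known for its shared regulators. RefSeq starts on GRCm38.p6 were at hand for 7 of the 10 members, with 10 starts in all. The 250 bases before each start were searched on both strands for the C/EBP core TTGCNNAA, the nuclear receptor half-site AGGTCA, the TATA box TATAAA and a pair of half-sites spaced by 1 base, which contains the half-site by construction. The C/EBP core was present in 4 of the 10 windows, of Lep, Cidec, Pparg and Plin1, against 9.56% of 32851 windows of all genes. The half-site was in 2 windows, both of Pparg, against 14.0% of all windows, and TATAAA was in 1, of Pparg, against 12.4%. No member window held the spaced pair, which was in 0.0335% of all windows. The 4 windows with the C/EBP core follow from 5′ to 3′, with the core in capitals on whichever strand it was found and with bases inside an annotated exon left off. They lie at chr6:29059971-29060219 (Lep, plus strand), chr6:113434765-113435014 (Cidec, minus strand, second of 2 starts), chr6:115421816-115422065 (Pparg, plus strand, last of 3 starts) and chr7:79732904-79733026 (Plin1, minus strand).
Lep: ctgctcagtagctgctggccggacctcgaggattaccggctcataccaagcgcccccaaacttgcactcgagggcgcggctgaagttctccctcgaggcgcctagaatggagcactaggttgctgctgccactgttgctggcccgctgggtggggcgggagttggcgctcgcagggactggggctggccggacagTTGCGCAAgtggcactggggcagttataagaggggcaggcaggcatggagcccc
Cidec: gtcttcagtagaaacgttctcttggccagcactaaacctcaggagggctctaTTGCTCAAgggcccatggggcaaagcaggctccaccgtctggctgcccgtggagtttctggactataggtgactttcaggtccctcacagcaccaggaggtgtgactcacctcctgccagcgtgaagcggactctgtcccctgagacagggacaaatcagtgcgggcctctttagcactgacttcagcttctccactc
Pparg: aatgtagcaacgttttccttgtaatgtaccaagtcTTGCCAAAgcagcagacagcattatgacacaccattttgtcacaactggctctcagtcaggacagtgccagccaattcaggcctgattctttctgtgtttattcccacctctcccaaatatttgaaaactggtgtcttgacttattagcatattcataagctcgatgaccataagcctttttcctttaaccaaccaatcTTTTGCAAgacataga
Plin1: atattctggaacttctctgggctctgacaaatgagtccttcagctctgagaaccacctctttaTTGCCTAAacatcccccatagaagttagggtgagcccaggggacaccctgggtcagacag
The first core of Lep began 55 bases before its start, that of Cidec 198, those of Pparg 215 and 16, and those of Plin1 187 and 58, of which the latter lies in the exonic part that is not shown. These matches describe letters and not binding, and the members that share the core differed in level, as the following values show.

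Pparg encodes the receptor PPAR gamma, which macrophages and endothelial cells also express (chr6:115360951-115490399, plus strand, overlapped by the minus strand gene Gm44079). It measured 7.14, 6.78 and 6.76 CPM in control replicates 1 to 3, 4.71, 7.67 and 8.61 with trametinib, 4.79, 4.53 and 4.30 with cediranib, and 4.33, 2.26 and 8.71 with the combination. The 3 cediranib tumors were all below the 3 control tumors, whereas the trametinib and combination tumors spread over the control range. Group means were 6.89 ± 0.216, 7.00 ± 2.03, 4.54 ± 0.244 and 5.10 ± 3.29 CPM (SD, n = 3 each). Thus 1 of the 4 tested members lay lower without overlap in this comparison, as did 3.46% of all tested genes. The fitted difference of cediranib against control, -0.60 on the log2 scale (SE 0.39), did not pass (adjusted p = 0.999 by edgeR, Benjamini-Hochberg). In that comparison 0% of all tested genes were called. Strand was not stated for the counting, so reads of Pparg and of Gm44079 cannot be separated.

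Lpl encodes lipoprotein lipase, the enzyme that frees fatty acids from lipoproteins at the vessel wall and that macrophages and muscle make as well (chr8:68880491-68907448, plus strand). It measured 7.82, 4.96 and 13.4 CPM in the control tumors, 14.4, 9.99 and 26.1 with trametinib, 15.5, 27.0 and 7.26 with cediranib, and 7.06, 5.16 and 12.5 with the combination. The highest values were those of trametinib replicate 3 and cediranib replicate 2, and every pair of groups overlapped. Group means were 8.73 ± 4.30, 16.8 ± 8.31, 16.6 ± 9.92 and 8.24 ± 3.81 CPM (SD, n = 3 each). Lpl was 0.95 (SE 0.52) above control with trametinib and 0.93 (SE 0.52) above it with cediranib on the log2 scale, with adjusted p of 0.335 and 0.999 in the edgeR test. Without trametinib replicate 3 the former was 0.48, and without cediranib replicate 2 the latter was 0.38.

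Fabp4 encodes the fatty acid carrier of adipocytes, also called aP2, which capillary endothelium and macrophages share (chr3:10204088-10208576, minus strand). It measured 0.0850, 0.506 and 1.61 CPM in the control tumors, 0.725, 1.05 and 1.42 with trametinib, 0.399, 2.74 and 0.287 with cediranib, and 0.403, 0 and 0.185 with the combination. The combination tumors were all below the trametinib tumors, so that 1 of the 4 tested members lay lower without overlap in this comparison, as did 12% of all tested genes, where 0.675% of all genes were called. Cediranib replicate 2 was the highest of all 12. Over the 12 libraries Fabp4 had 98 counts, 6 of them in the 3 combination tumors. The combination was -2.41 (SE 1.16) from trametinib and -2.51 (SE 1.16) from cediranib on the log2 scale, and neither difference passed (edgeR with Benjamini-Hochberg adjustment, adjusted p = 0.304 and 0.218). Without cediranib replicate 2 the latter was -0.80, and the difference of cediranib from control turned from 0.66 to -1.05.

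Plin1 encodes perilipin 1, the coat of the adipocyte lipid droplet that gates lipolysis (chr7:79720218-79732787, minus strand). It measured 1.11, 0 and 0.706 CPM in the control tumors, 1.63, 0.232 and 6.60 with trametinib, 1.99, 5.66 and 0.191 with cediranib, and 0.907, 1.27 and 1.48 with the combination. Trametinib replicate 3 and cediranib replicate 2 held 57.9% of its 240 counts, and in both single-agent groups another tumor lay under 0.25 CPM. The combination tumors lay close together and every pair of groups overlapped. Group means were 0.604 ± 0.560, 2.82 ± 3.35, 2.62 ± 2.79 and 1.22 ± 0.290 CPM (SD, n = 3 each). Plin1 had the largest fitted differences from control among the tested members, 2.20 (SE 1.17) with trametinib and 2.06 (SE 1.18) with cediranib on the log2 scale. They did not pass (edgeR with Benjamini-Hochberg adjustment, adjusted p = 0.320 and 0.999), and they were 0.63 without trametinib replicate 3 and 0.80 without cediranib replicate 2.

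**Figure D1:**
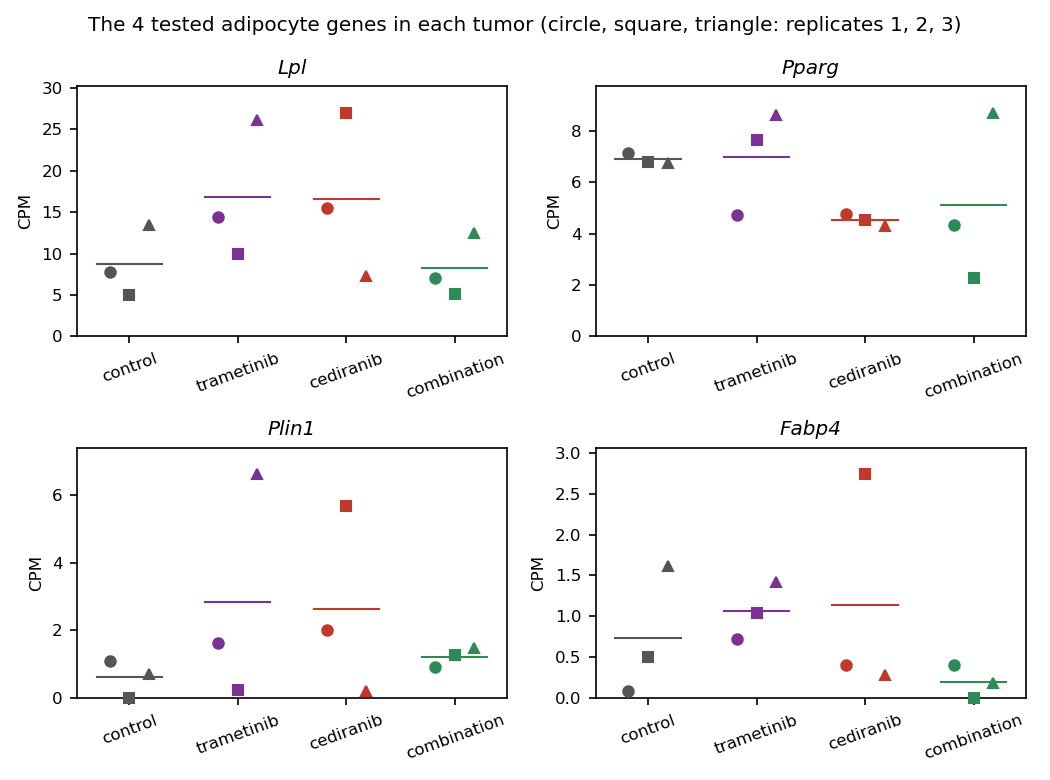
CPM of Lpl, Pparg, Plin1 and Fabp4 in each of the 12 tumors (y axis, linear from 0) by treatment (x axis). Circles, squares and triangles are replicates 1, 2 and 3 and horizontal lines are group means. For Lpl, Plin1 and Fabp4 the cediranib square, replicate 2, stands at 27.0, 5.66 and 2.74 CPM, above the other cediranib tumors, and the cediranib tumors of Pparg lie between 4.30 and 4.79 CPM, below all control tumors.

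The other 6 members had too few counts for a test and are given as counts. Cidec, a droplet protein that fuses lipid droplets and is also known as FSP27 (chr6:113424634-113435756, minus strand), had 14 counts, of which 7 were in cediranib replicate 2, 5 in trametinib replicate 3 and 1 each in control replicate 1 and cediranib replicate 1. Cidea, its relative of brown fat and the sebaceous gland (chromosome 18, plus strand, overlapped by the minus strand gene B430212C06Rik), had 23 counts with another distribution. Of these, 8 each were in combination replicates 2 and 3, 4 in cediranib replicate 3, 2 in trametinib replicate 2 and 1 in control replicate 1. Trametinib replicate 3 and cediranib replicate 2 thus held 85.7% of the Cidec counts and 0% of the Cidea counts.

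Of the adipokines, Cfd had the most counts and Lep, Adipoq and Retn were the lowest of the 10 members. Cfd encodes adipsin, the complement factor D that adipocytes release (chr10:79890853-79892655, plus strand), and had 20 counts, 9 in cediranib replicate 2, 6 in trametinib replicate 3 and at most 1 in any other tumor. Lep encodes leptin, the hormone that reports fat stores (chr6:29060220-29070972, plus strand), and had 10 counts, 5 in cediranib replicate 2, 2 each in trametinib replicate 3 and cediranib replicate 1, and 1 in trametinib replicate 2. Adipoq, which encodes adiponectin (chr16:23146536-23158028, plus strand), had 3 counts, 2 in trametinib replicate 3 and 1 in cediranib replicate 3, and Retn, which encodes resistin (chr8:3655770-3660110, plus strand), had 2, 1 each in cediranib replicate 2 and combination replicate 3. Adipoq and Lep were thus without a count in all 3 control and all 3 combination tumors, and Adipoq, the defining marker of the mature adipocyte, was at 0 in 10 of the 12 libraries.

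Taken over Cfd, Cidec, Lep, Adipoq and Retn, 49 counts were found, of which cediranib replicate 2 held 22 (exact Poisson 95% interval 13.8 to 33.3) and trametinib replicate 3 held 15 (8.40 to 24.7). The other 10 libraries held 0 to 4 counts each, and these 2 libraries held 75.5% of the total. Each group thus had 1 tumor or none with more than 4 of these counts, and no difference between treatments was tested on them. With Cidea included the total was 72 counts and the share of the 2 libraries 51.4%.

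**Figure D2:**
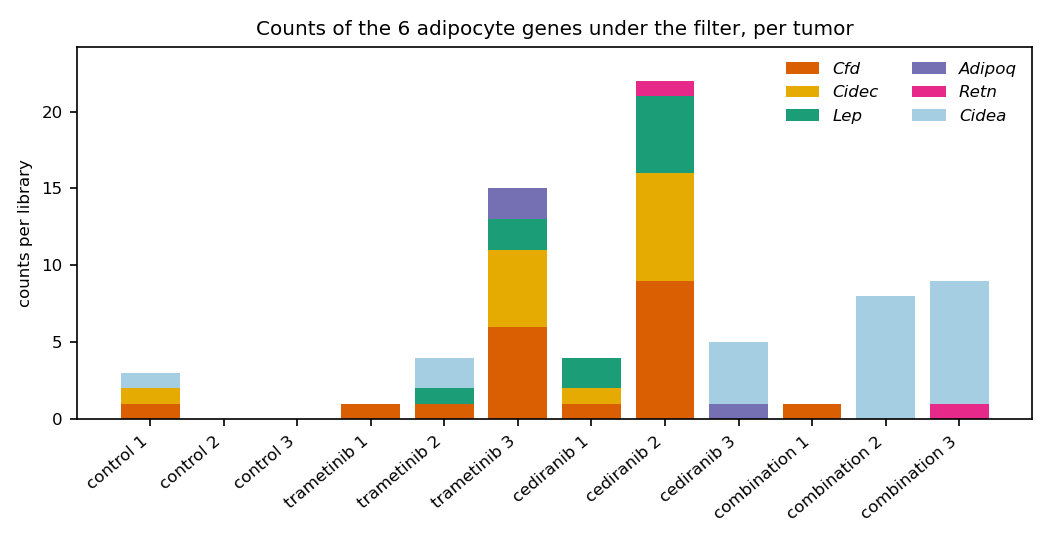
Raw counts of Cfd, Cidec, Lep, Adipoq, Retn and Cidea in each library (y axis, counts per library, stacked) for the 12 tumors (x axis). Cediranib replicate 2 reaches 22 counts and trametinib replicate 3 reaches 15, both without Cidea, while 8 of the 8 counts of combination replicate 2 and 8 of the 9 counts of combination replicate 3 are Cidea.

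Levels of different members were compared as CPM per kb of the length given in the table, as means over the 12 tumors. Pparg was highest at 1.99 CPM per kb and Lpl next at 1.20, with Pparg above Lpl in 11 of 12 tumors and Lpl above Plin1 (0.391) in 12 of 12. Fabp4 followed at 0.175, below Plin1 in 8 of 12 tumors, and then Cfd at 0.167, Cidea at 0.155, Cidec at 0.0567, Lep at 0.0237, Adipoq at 0.0159 and Retn at 0.00987. From Fabp4 down, neighbours in this order were not separated beyond their spread over tumors, since each was above the next in at most 6 of 12. The length of Fabp4 in the table, 4489 bases, is that of the whole gene with its introns, which lowers its value per kb. For Lpl and Pparg it is that of all annotated exons joined, 10478 and 2953 bases, and a single transcript can be shorter. The order of these genes rests on the lengths. As mean CPM, not divided by length, Lpl stood at 12.6, above 50.9% of the tested genes. Pparg stood at 5.88 CPM, above 36.9%. The median tested gene stood at 3.47 CPM per kb, and on this scale Pparg was above 38.4% of the tested genes, Lpl above 28.9%, Plin1 above 10.6% and Fabp4 above 3.23%. All 10 members summed to 16.4, 12.2 and 22.5 CPM in the control tumors, 21.6, 19.4 and 44.0 with trametinib, 23.0, 42.0 and 12.5 with cediranib, and 12.8, 9.42 and 23.7 with the combination. The highest sums were again those of trametinib replicate 3 and cediranib replicate 2, and most of each sum was Lpl and Pparg, which other cell types express.

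None of the tested members passed in any comparison. Calls in edgeR required an adjusted p of 0.05, by Benjamini-Hochberg over all 12897 genes, and a log2 fold change of 1.5 or more in either direction. For trametinib against control 0 of the 4 tested members were called, against 2.4% of all tested genes, and their median log2 fold change was 0.75 against 0.01 over all genes. For cediranib against control 0 of 4 were called, against 0% of all genes, with a median of 0.79 against -0.00. For combination against control 0 of 4 were called, against 3.61%, with a median of -0.26 against 0.00. These 3 comparisons share the control tumors.

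Between the treated groups the 4 tested members were mostly fitted lower in the combination, with no call. Cidea, which was not tested, had 16 of its 23 counts in the combination tumors. For combination against trametinib 0 of 4 were called, against 0.675% of all genes, and the median was -1.13 against -0.01, with all 4 members lower. For combination against cediranib 0 of 4 were called, against 2.45%, and the median was -1.05 against 0.00, with 3 of 4 lower. For trametinib against cediranib 0 of 4 were called, against 3.49%, with a median of 0.08 against -0.00. Without trametinib replicate 3 and cediranib replicate 2 together, Plin1 changed sign and was 0.34 for combination against trametinib and 0.16 for combination against cediranib, while Lpl kept its sign at -0.57 and -0.46. In each of these 6 comparisons 0 of the 4 members had an unadjusted p under 0.05 in the edgeR test. DESeq2 called 0 in all 6, with 2 members at an unadjusted p under 0.05 for combination against trametinib, 2 for combination against cediranib and 0 in the other comparisons.

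The interaction asks whether the effect of cediranib with trametinib differed from its effect without it. Lpl was at -1.96 (SE 0.74), Plin1 at -3.29 (SE 1.61), Fabp4 at -3.07 (SE 1.53) and Pparg at 0.15 (SE 0.54) on the log2 scale. Lpl had an unadjusted p of 0.0212 in this edgeR model and an adjusted p of 0.682, and the lowest adjusted p of the other 3 was 0.722. Thus 0 of the 4 tested members were called, against 0% of all tested genes, 1 had an unadjusted p under 0.05, and DESeq2 called 0, with 2 at an unadjusted p under 0.05. Without trametinib replicate 3 and cediranib replicate 2 the values were -0.95 for Lpl and -0.47 for Plin1, and Fabp4 then fell under the filter. Without any filter on low counts edgeR called Plin1 for trametinib and for cediranib against control, Fabp4 for combination against cediranib, and Lpl and Plin1 in the interaction. P-values measure the spread between these tumors, and the labels do not say how the tumors of a group were related.

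**Figure D3:**
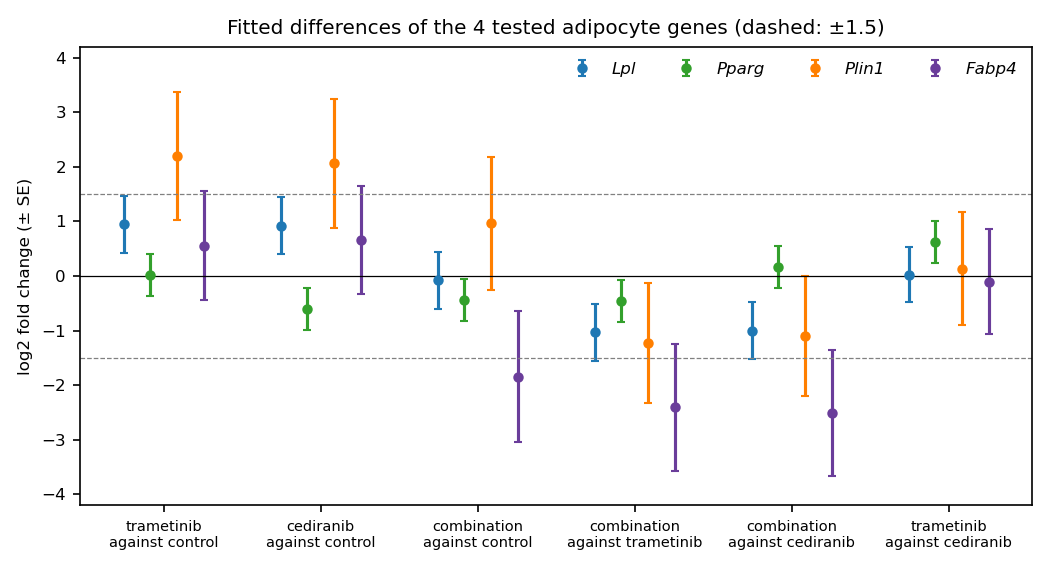
Fitted log2 fold changes of Lpl, Pparg, Plin1 and Fabp4 (y axis, points) with their standard errors (bars) in the 6 comparisons between groups (x axis), with dashed lines at ±1.5. Plin1 lies past the line at 2.20 and 2.06 for the single agents against control and Fabp4 at -1.85, -2.41 and -2.51 for the combination, with standard errors of 0.99 to 1.22 for these genes in the comparisons with control.

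The tumors of one group differed in these genes together. Trametinib replicate 3 was the highest tumor of its group for 8 of the 9 members with a count in that group (88.9%), where it was the highest for 34.3% of all tested genes. Cediranib replicate 2 was the highest of its group for 7 of 10 members (70%), against 34.8% of all tested genes. In the other groups control replicate 1 and combination replicate 3 were each the highest for 5 of 7 members (71.4%), against 34.6% and 36.0% of all tested genes. Members with a single count are included here, and control replicate 1 led for Cfd, Cidec and Cidea by 1 count each. Of the 4 tested members control replicates 1 and 3 were each the highest for 2 (50%). Combination replicate 3 was the highest for 3 of them (75%), as was cediranib replicate 2. The counts of the members chose trametinib replicate 3 and cediranib replicate 2, so their shares are a description. A second list, of 47 other genes that adipocytes use, gave 20 of 44 with a count (45.5%) for trametinib replicate 3. For cediranib replicate 2 it gave 30 of 45 (66.7%). The shares of all tested genes were the 34.3% and 34.8% above. On this list combination replicates 3 and 1 were the highest for 19 and 17 of 42 genes (45.2% and 40.5%), and control replicate 3 for 15 of 41 (36.6%). The share of trametinib replicate 3 was thus near that of combination replicate 3. Adrb3, the adrenergic receptor of the fat cell, had 12 counts in cediranib replicate 2, 5 in trametinib replicate 3 and 0 to 3 elsewhere, and Pck1, which makes the glycerol backbone of triglyceride, had 41 and 30 against 0 to 15. Lipe, the hormone-sensitive lipase, stood at 10.3 CPM in cediranib replicate 2 and 7.94 in trametinib replicate 3 and at 2.67 to 5.85 in the other 10. Adrb3, Pck1 and Lipe were chosen after their values were seen, and other genes of the list went the other way. Fasn was at 118 CPM in cediranib replicate 2 against 192 and 187 in the rest of its group. In trametinib replicate 3 it was at 76.5 against 137 and 142. Acly and Agpat2 were also the lowest of their group in cediranib replicate 2, at 258 and 1.98 CPM. In whole tumors, more or fewer adipocytes and more or less RNA per adipocyte cannot be told apart.

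Of this wider list 35 of 47 genes were tested, and few passed. It held transcription factors, droplet, lipolysis, synthesis and uptake genes, receptors and a few others. Plin4, a perilipin of small droplets, was higher with trametinib than in control, Dgat2, the enzyme of the last step of triglyceride synthesis, was higher with the combination than in control, and Rbp4, a retinol carrier that fat and liver secrete, was lower with the combination. These were the calls in all 6 comparisons, 1 of 35 higher for trametinib against control and 1 higher and 1 lower for combination against control, against the 2.4% and 3.61% of all genes given above. In the other 4 comparisons edgeR called 0 of 35, with 4 genes at an unadjusted p under 0.05 for cediranib against control, 9 each for the combination against trametinib and against cediranib, and 8 for trametinib against cediranib. Of all tested genes 4.32%, 17.9%, 23.1% and 24.7% were under that p in these comparisons. DESeq2 called 0 in the first 3 of these and 1, Plin4, in the last, and it also called Plin4 for combination against control. Against control 18 genes of this list were fitted higher and 17 lower for trametinib, 23 and 12 for cediranib, and 24 and 11 for the combination. The median log2 fold change of the list was 0.12 in each of these 3 comparisons.

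Plin4 measured 0.0850, 0.202 and 0.605 CPM in the control tumors, 2.72, 1.97 and 5.85 with trametinib, 0.698, 1.51 and 0.0955 with cediranib, and 1.61, 1.45 and 3.15 with the combination. All trametinib tumors were above all control tumors, by 3.56 on the log2 scale (SE 0.82, adjusted p = 0.0251 in the edgeR test). The call was lost without control replicate 1 (adjusted p = 0.0857), control replicate 2 (0.0900) or trametinib replicate 3 (0.0997), and without trametinib replicate 3 and cediranib replicate 2 together (0.0690). Dgat2 measured 5.61, 3.34 and 6.05 CPM in the control tumors, 6.16, 3.48 and 11.8 with trametinib, 8.08, 9.35 and 9.93 with cediranib, and 15.6, 21.6 and 15.3 with the combination. All combination tumors were above the other 9, and the difference from control was 1.80 (SE 0.37, edgeR adjusted p = 0.0124), with an adjusted p of 0.0535 without control replicate 2. Rbp4 measured 0.255, 3.44 and 5.24 CPM in the control tumors, 1.99, 1.05 and 1.67 with trametinib, 0.997, 1.98 and 1.24 with cediranib, and 0.504, 0.272 and 0.463 with the combination. Control replicate 1 lay below all 3 combination tumors, and the difference of -2.81 (SE 0.81, edgeR adjusted p = 0.0470) failed in 6 of 10 alternatives, among them every one that left out a combination tumor or control replicate 2 or 3.

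**Figure D4:**
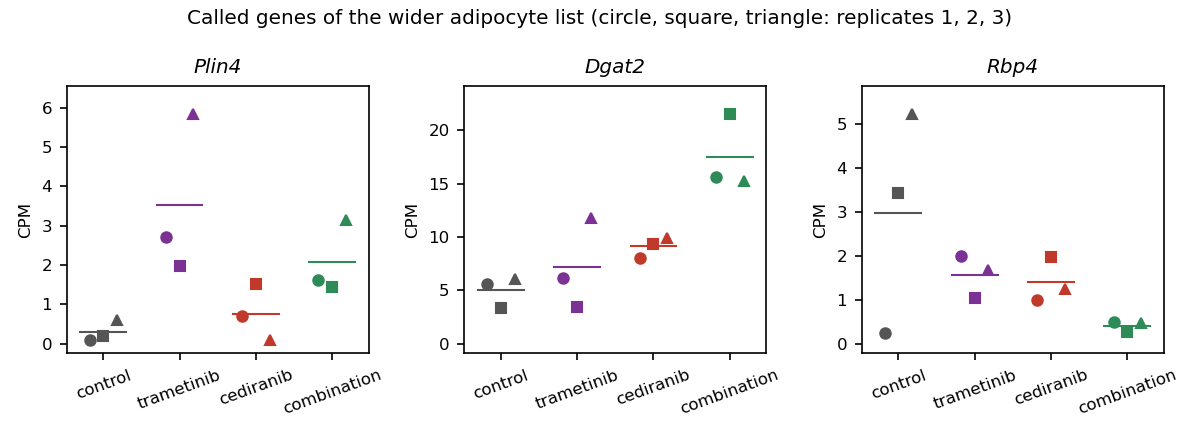
CPM of Plin4, Dgat2 and Rbp4 in each of the 12 tumors (y axis, linear) by treatment (x axis). Circles, squares and triangles are replicates 1, 2 and 3 and lines are group means. Dgat2 is at 15.3 to 21.6 CPM in the combination tumors and at most 11.8 elsewhere, and 1 of the 3 control tumors of Rbp4, at 0.255 CPM, lies below the combination.

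Genes of related cell types were read beside the members. Of 6 brown fat genes 1 was tested, Ppargc1a, and Ucp1, the uncoupling protein that defines brown fat, had 1 count in all 12 libraries. Of 5 genes of adipocyte precursors 3 were tested, and Zfp423, a transcription factor of these cells, measured 43.2, 56.4 and 76.0 CPM in the combination tumors and 15.9, 16.5 and 15.4 with cediranib, a difference of 1.88 (SE 0.51, edgeR adjusted p = 0.0438) that was lost in 7 of 12 alternatives, including each that left out 1 of these tumors. Of 7 sebaceous gland genes 3 were tested, with Mc5r at 0 in every library. Acsbg1, an acyl-CoA synthetase, was at 21.6 ± 6.74 CPM in control and 21.4 ± 4.43 with cediranib, and at 2.27 ± 1.86 with trametinib and 3.13 ± 0.436 with the combination (SD, n = 3 each). It was lower by the edgeR test in all 4 comparisons of a group with trametinib and a group without it, with log2 fold changes of -2.77 to -3.25. The list did not move together. For combination against control 2 of its 3 tested genes were fitted higher and 1 lower, with a median of 2.42. Fa2h measured 0.539 CPM in control and 3.08 with the combination as means. Acsbg1 was at 23.7 and 27.1 CPM in control replicates 2 and 3, where Fa2h and Awat1 had 0 counts. Awat1, a wax synthase of the sebaceous gland, was chosen after its values were seen. It had counts in the tumors with most Cidea counts and in others, with 59 in combination replicate 3, 23 and 6 in combination replicates 1 and 2, 14 and 11 in cediranib replicates 1 and 3, 7 in control replicate 1 and 0 elsewhere. Combination replicate 1 and cediranib replicate 1 had Awat1 counts but no Cidea count. Awat2, of the same list, went otherwise, with 3, 2 and 1 counts in trametinib replicates 1 to 3, where Awat1 had 0. It had 2 counts in combination replicate 3, 1 in control replicate 2 and 0 elsewhere.

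Markers of epidermis and muscle spanned a wider range between tumors than the members did. The summed CPM of 10 epidermis markers ran from 20.6 to 616 in control, 4.01 to 9.70 with trametinib, 44.4 to 2835 with cediranib and 2913 to 4405 with the combination, and that of 8 skeletal muscle markers from 5.55 to 16714 in control, 222 to 23435 with trametinib, 10.5 to 131 with cediranib and 14.9 to 469 with the combination. Cediranib replicate 2, with the highest member sum of its group, had the lowest epidermal and muscle sums of it. It also had the highest macrophage, endothelium and erythroid sums of its group, at 438, 307 and 569 CPM. Trametinib replicate 3 had the lowest epidermal sum of its group, 4.01 CPM, with 1954 CPM of muscle markers. Its macrophage sum was 327 CPM, its endothelium sum was the lowest of its group at 45.0, and its erythroid sum was the highest at 90.2. Lpl, Fabp4 and Pparg are also made by macrophages and endothelium, whose marker sums were 174 to 308 and 31.6 to 73.7 CPM in the combination tumors against 386 to 682 and 188 to 410 in control. With trametinib they were 304 to 430 and at most 106, and with cediranib 282 to 438 and 111 to 307. The sum of 5 erythroid markers was at most 16.0 CPM with the combination, 73.9 to 1788 in control, 54.0 to 90.2 with trametinib and 53.8 to 569 with cediranib. None of these lists had all its genes at 0 in any group, and their part in the member values was not tested.

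**Figure D5:**
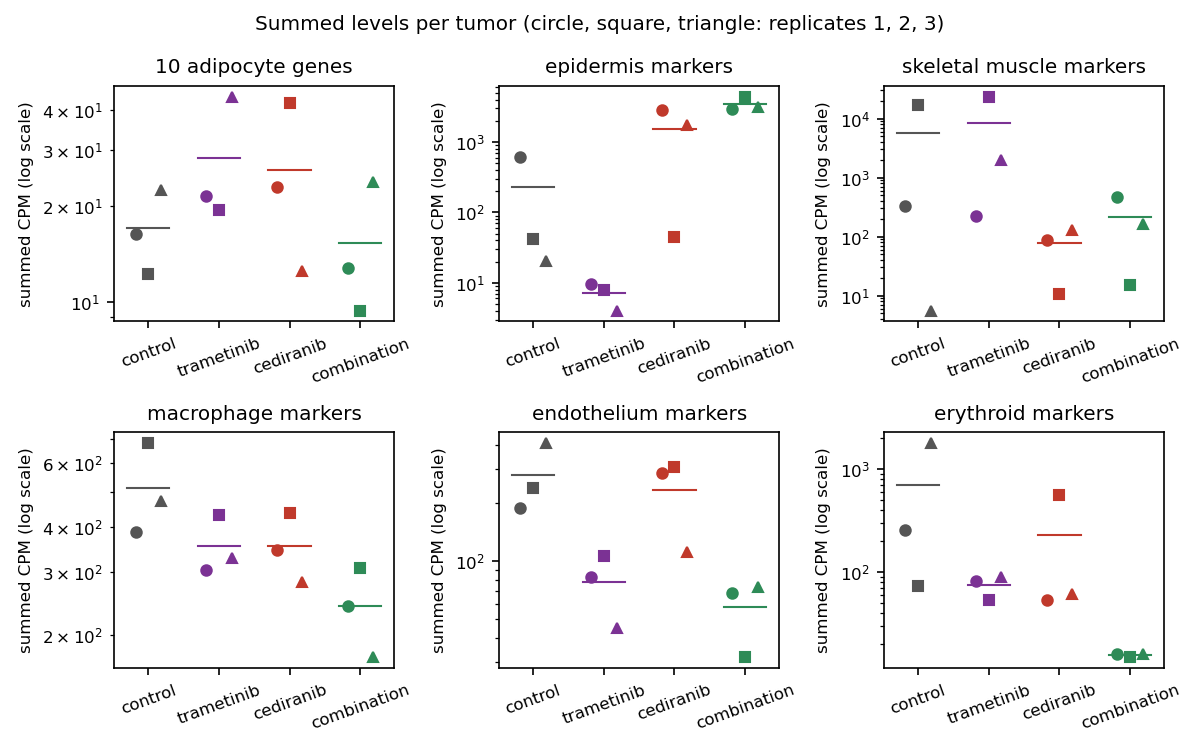
Summed CPM of the 10 members and of the epidermis, skeletal muscle, macrophage, endothelium and erythroid markers (y axes, log scale) in each of the 12 tumors by treatment (x axis), with circles, squares and triangles for replicates 1, 2 and 3 and lines for group means. The members span 9.42 to 44.0 CPM, the epidermal markers 4.01 to 4405 CPM and the muscle markers 5.55 to 23435 CPM. Within its group the cediranib square is highest for the members and for the macrophage, endothelium and erythroid markers. It is lowest for epidermis and muscle.

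The genes whose levels followed the members most closely were sought by the correlation of log2 CPM with Lpl over the 12 tumors, since Adipoq was not tested. The 10 genes outside the members with the highest Pearson coefficients were Chrdl1 (0.887), Nelfa (0.852), Rspry1 (0.844), Cd5l (0.820), Snora78 (0.818), Zfp46 (0.807), Hp (0.802), Fam192a (0.792), AC112943.2 (0.787) and Ramp2 (0.787). Among the members the coefficient with Lpl was 0.792 for Plin1, 0.723 for Fabp4 and 0.335 for Pparg. Hp, which encodes haptoglobin, measured 23.1 CPM in cediranib replicate 2, 18.3 in trametinib replicate 3 and 1.62 to 7.60 in the other 10, and Chrdl1, a BMP antagonist, was at 2.27 and 2.01 in these 2 and at 0 to 1.21 in the others. With Plin1 in place of Lpl, 1 of the 10 names was shared (Hp, 0.805), and Lipe was among the 10 at 0.788. These points share the libraries and 4 treatments, so the coefficients are a description of 12 tumors.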

How the data were processed

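RNA sequencing counts of 12 SVR tumors were analysed, 3 per treatment, grouped by their titles and treatment labels. The values deposited by the authors are raw counts, not normalized, made from paired-end reads of exome capture libraries with bcl2fastq 1.8.4, STAR 2.7.1a in 2-pass mode on GRCm38 and featureCounts 1.6.0. Strand setting and annotation release: not given in the sources used here. Capture probes and partly degraded RNA can set a gene's yield apart from its abundance. Of 54232 genes 29102 had a count and 12897 passed filterByExpr of edgeR with a minimum count of 10 and a minimum total of 15.

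Counts were scaled with TMM (factors 0.908 to 1.10) and tested by quasi-likelihood (glmQLFit, glmQLFTest; edgeR 4.0.16, R 4.3.3), all 12 libraries in 1 fit, with Benjamini-Hochberg adjustment over all genes tested (biological coefficient of variation 27.2%). Calls required an adjusted p of 0.05 and an absolute log2 fold change of 1.5. Each standard error was obtained by dividing the size of a log2 fold change by the root of its F, and log2 CPM for correlations used a prior count of 2. The fitting script was tested on simulated data. Alternatives were DESeq2 1.42.0 and its size factors, no filter, each comparison alone, the replicate number as a block, adjusted p alone and each tumor left out. Leaving out 2 libraries together and Plin1 as the reference for likeness were chosen after seeing the data. No pair of libraries was identical.

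Coordinates are those of the deposited table, and exons and overlaps came from GENCODE M21. Promoters were RefSeq's. All 10 members were named, and of the wider adipocyte, brown fat, precursor and sebaceous gland lists the genes called in any comparison. Genes named beside these, namely Adrb3, Pck1, Lipe, Fasn, Acly, Agpat2, Awat1, Awat2, Fa2h, Ucp1 and Mc5r, were chosen after their values were seen. The members and lists were chosen with earlier results of these data known.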

Additional observations from a re-analysis of the deposited data

How the results depend on the processing

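In 91 of 95 recomputed comparisons of the members with edgeR or DESeq2 the count of members called stayed at 0. The 4 exceptions came without the filter on low counts, which called 1 member for trametinib against control, 1 for cediranib against control, 1 for combination against cediranib and 2 in the interaction. Of 342 recomputed log2 fold changes of members 314 kept their sign. With the replicate block, values that changed sign were -0.0136 for Pparg in trametinib against control and -0.17 for Lpl, 0.00685 for Fabp4 and -0.18 for Plin1 in trametinib against cediranib. The replicate block called 0 members in every comparison. Of 18 same-numbered pairs 3 correlated above 0.1, the highest at 0.356, and the differently numbered pair control 3 and cediranib 2 was at 0.354. These coefficients cannot decide whether the numbers pair the samples. The replicate block called 57 genes for combination against trametinib in place of 87. Without trametinib replicate 3 and cediranib replicate 2 together, the reversed values were -0.16 for Pparg in trametinib against control, 0.34 and 0.16 for Plin1 in combination against trametinib and cediranib, and -0.18 for Plin1 in trametinib against cediranib. The cause was not tested in any of these.

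Leaving out 1 tumor at a time, reversals fell in these ranges. For trametinib against control Fabp4 ranged from -0.00344 to 1.86 and Pparg from -0.17 to 0.24. Fabp4 ranged from -1.05 to 1.96 for cediranib against control and Lpl from -0.52 to 0.36 for combination against control. Plin1 ranged from -1.75 to 0.35 for combination against trametinib and from -1.63 to 0.17 for combination against cediranib, where Pparg ranged from -0.46 to 0.54. For trametinib against cediranib Lpl ranged from -0.44 to 0.57, Fabp4 from -0.56 to 1.61 and Plin1 from -1.43 to 1.39. In the interaction Pparg ranged from -0.47 to 0.53.

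Counts of all genes called moved by over 1.5 times in 32 of 95 recomputations. Over all alternatives they ranged from 233 to 789 for trametinib against control, 0 to 324 for cediranib, 237 to 1287 for the combination, 0 to 773 for combination against trametinib, 188 to 991 for combination against cediranib, 254 to 1116 for trametinib against cediranib and 0 to 261 in the interaction. The genes most like Lpl shared 5 of 10 names by Spearman's coefficient and 1 of 10 by deviations from group means. Fabp4 with 98 counts and the 6 members under the filter limit what depth can show.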
